A study of Mus musculus with 17 samples.

Results

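The core circadian clock genes are 8 transcription regulators of the mouse, Per1, Per2, Per3, Cry1, Cry2, Arntl (also called Bmal1), Clock and Npas2, taken by symbol from count files that list 24491 genes each. All 8 were found in the files of all 17 libraries, with 8 of 8 expressed highly enough to be tested in hippocampus and 7 of 8 in oocytes. RNA was sequenced from wild-type CD1 mice in 6 groups. The oocyte libraries came from 48-week-old females injected intraperitoneally with the mTOR inhibitor rapamycin, starting in week 8 and lasting 40 weeks at a dose of 2 mg/kg (n = 3), from untreated 48-week-old females (n = 2) and from untreated 4-week-old females (n = 2). Each held about 10 oocytes at the second meiotic metaphase, obtained after gonadotrophins given at 10 IU to the females of 48 weeks and at 5 IU to those of 4 weeks, with the cumulus cells stripped off. The hippocampus libraries came from adult female offspring, 40 to 44 weeks old and themselves untreated, of rapamycin-treated aged mothers (rapamycin offspring, n = 3), of aged mothers (aged-mother offspring, n = 3) and of young mothers (young-mother offspring, n = 4). All animals were kept under 12 hours of light and 12 hours of dark. The hour at which each tissue was taken is not given in the sources used here, nor is the age of the mothers at birth.

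The clock is a transcriptional loop that runs in nearly every cell. CLOCK or its relative NPAS2 pairs with BMAL1, the product of Arntl, and switches on the Per and Cry genes. PER and CRY proteins then repress that pair, and a second loop of REV-ERB and ROR receptors drives Arntl at the opposite time of day. In rodent brain the Per transcripts and Arntl therefore cycle out of phase. Per1 is also an immediate early gene, induced within the hour by neuronal activity through CREB and by glucocorticoids. Mature oocytes are transcriptionally silent, and their clock transcripts are stored maternal messages.

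Promoter windows of 300 bases, 250 before and 50 after each annotated start, were available for 7 of the 8 members from RefSeq (GRCm38.p6). They were searched on both strands for the E-box CACGTG bound by CLOCK and BMAL1, for the CREB core TGACGT and for the REV-ERB and ROR element TAGGTCA. Of 32851 mouse windows of the same length, 7.15% held CACGTG, 7.51% held TGACGT and 2.61% held TAGGTCA. The 4 member windows with a match are shown, with the matched letters in capitals, so that the searched letters can be read in place. A match describes letters only, and whether any of them is used in these tissues was not tested. The matches did not overlap each other.
Per1, first start, chr11:69098699-69098998, plus strand: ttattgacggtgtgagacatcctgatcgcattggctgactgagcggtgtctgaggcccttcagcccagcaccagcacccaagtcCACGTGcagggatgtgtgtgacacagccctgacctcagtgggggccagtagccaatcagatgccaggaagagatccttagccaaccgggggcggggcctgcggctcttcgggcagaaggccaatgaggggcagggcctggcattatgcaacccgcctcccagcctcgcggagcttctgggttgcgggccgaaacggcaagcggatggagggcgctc
Per1, second start, chr11:69099902-69100201, plus strand: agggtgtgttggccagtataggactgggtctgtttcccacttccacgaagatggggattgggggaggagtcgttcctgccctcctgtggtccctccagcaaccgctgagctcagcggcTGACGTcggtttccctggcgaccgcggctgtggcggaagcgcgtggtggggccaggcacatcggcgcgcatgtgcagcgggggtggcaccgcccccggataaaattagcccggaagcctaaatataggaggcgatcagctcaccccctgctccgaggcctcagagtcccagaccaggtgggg
Cry1, chr10:85185005-85185304, minus strand: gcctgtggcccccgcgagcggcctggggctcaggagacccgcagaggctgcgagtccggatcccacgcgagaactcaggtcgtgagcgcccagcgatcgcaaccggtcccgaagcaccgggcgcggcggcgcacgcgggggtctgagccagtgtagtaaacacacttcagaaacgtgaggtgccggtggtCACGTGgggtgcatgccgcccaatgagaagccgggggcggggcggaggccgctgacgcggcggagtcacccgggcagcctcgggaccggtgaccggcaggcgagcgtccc
Arntl, second start, chr7:113207261-113207560, plus strand: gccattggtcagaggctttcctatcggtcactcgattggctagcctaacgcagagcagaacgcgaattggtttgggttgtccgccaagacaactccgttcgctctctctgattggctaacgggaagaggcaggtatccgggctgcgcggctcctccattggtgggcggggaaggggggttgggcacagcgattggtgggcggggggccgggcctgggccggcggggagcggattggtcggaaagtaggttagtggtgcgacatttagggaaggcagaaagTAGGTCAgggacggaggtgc
The E-box began 166 bases before the first Per1 start and 60 bases before the Cry1 start, and the CREB core 132 bases before the second Per1 start. The element TAGGTCA began 30 bases after the second Arntl start. The windows of Per3, Cry2, Clock and Npas2 held none of these exact letters.

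Hippocampus libraries held 16434398 to 20220617 counts and oocyte libraries 3912163 to 8334873. Levels are given as CPM, counts scaled to library size with TMM factors, and 3 counts stood for 0.151 to 0.187 CPM in hippocampus and for 0.349 to 0.809 CPM in oocytes. In hippocampus libraries, 6 pyramidal and granule neuron markers summed to 6923.3 to 8363.6 CPM in rapamycin offspring, to 6287.3 to 6877.7 CPM in aged-mother offspring and to 5877.9 to 7425.1 CPM in young-mother offspring. The 8 oocyte markers summed to at most 1.07 CPM in any hippocampus library, with 3 to 7 of them at 0. Hippocampus libraries differed within groups in the median level of 76 cytosolic ribosomal protein mRNAs, relative to the mean of the 10 libraries. On the log2 scale it stood at -0.91, 0.64 and -0.43 in rapamycin offspring, at 0.51, 0.38 and 0.02 in aged-mother offspring, and at -0.23, 0.70, -0.54 and -0.10 in young-mother offspring, each in the order of the replicate numbers. Rapamycin 2 and young-mother 2, the libraries highest in that level, were the lowest of their groups in a sum of 5 endothelial markers, which stood at 183.1, 61.7 and 179.3 CPM in rapamycin offspring, at 62.7, 61.3 and 73.1 CPM in aged-mother offspring and at 144.7, 42.9, 156.5 and 129.1 CPM in young-mother offspring. In a sum of 5 oligodendrocyte markers they were the highest of their groups, with 2504.5, 9174.7 and 4503.9 CPM in rapamycin offspring, 7173.6, 9327 and 3861 CPM in aged-mother offspring and 2832, 9039.5, 3640.9 and 3719.2 CPM in young-mother offspring. In bulk tissue, fewer cells of a type and less RNA per cell cannot be told apart.

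Per1 showed the largest log2 difference of any member between offspring groups. Its protein is one of the repressors of the loop, and its gene lies on chromosome 11 from 69095217 to 69109960 on the plus strand of GRCm38. Per1 stood at 78.1, 65.5 and 77.3 CPM in rapamycin offspring, at 85.0, 91.4 and 116.2 CPM in aged-mother offspring and at 65.1, 45.5, 74.2 and 60.4 CPM in young-mother offspring. All 3 libraries of aged mothers lay above all 7 others, while rapamycin and young-mother offspring overlapped. Between aged-mother and young-mother offspring the log2 fold change was 0.67 ± 0.17 (SE, 95% interval 0.29 to 1.05), or 1.59-fold, but it did not pass across all genes (edgeR adjusted p = 0.683). Between rapamycin and aged-mother offspring it was -0.41 ± 0.19 (SE, interval -0.82 to 0.01, edgeR adjusted p = 0.796), and between rapamycin and young-mother offspring 0.26 ± 0.17 (interval -0.12 to 0.65, edgeR adjusted p = 0.999). Within groups, Per1 was lowest in rapamycin 2 and young-mother 2. With the ribosomal protein level as a covariate, Per1 was 0.81 ± 0.11 higher on the log2 scale in aged-mother than in young-mother offspring and passed (edgeR adjusted p = 0.0189). With both of those libraries left out the difference was 0.56 ± 0.13 and also passed (edgeR adjusted p = 0.0423), but 590 genes did so there. Over 18 settings, the 2 just given among them, the value ran from 0.52 to 0.81 and passed in those 2 alone, both chosen after the data had been seen.

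**Figure D1:**
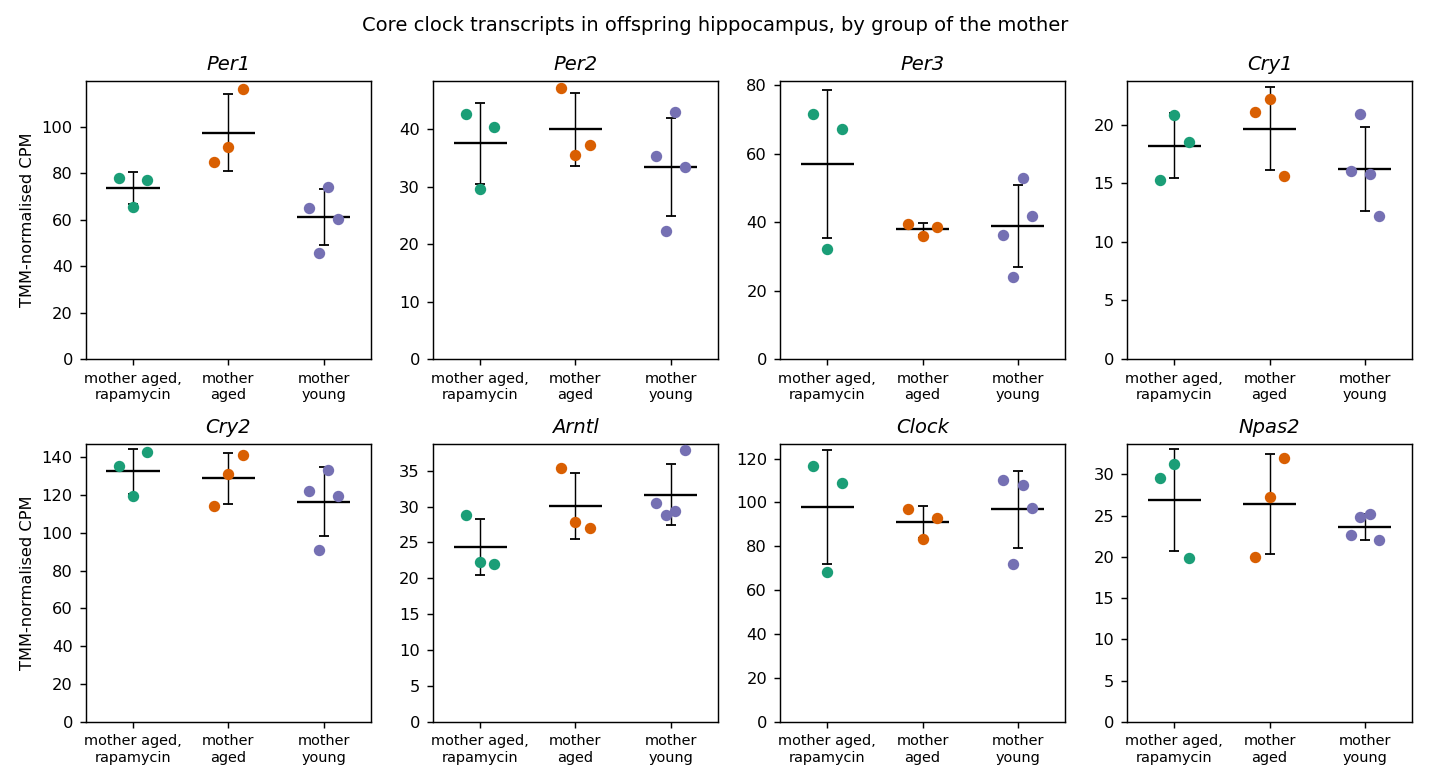
TMM-normalised CPM of the 8 genes in each hippocampus library (points), by group of the mother, with the mean (bar) and SD (whiskers, n = 3, 3 and 4). The 3 points of aged mothers lie above all others for Per1, whereas the groups overlap in the other 7 panels.

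In neither of the other Per genes did the aged-mother libraries stand apart in that way, although the group means of Per2 fell in the same order as those of Per1. Per2, the repressor whose loss shortens the rhythm of mice, lies on chromosome 1 from 91415982 to 91459324 and stood at 42.7, 29.6 and 40.4 CPM in rapamycin offspring, at 47.2, 35.5 and 37.3 CPM in aged-mother offspring and at 35.4, 22.3, 43.0 and 33.4 CPM in young-mother offspring. All 3 groups overlapped, and aged-mother offspring were 0.25 ± 0.22 above young-mother offspring on the log2 scale (interval -0.23 to 0.73, edgeR adjusted p = 0.99). Per3, the Per gene that is least needed for the rhythm, lies on chromosome 4 from 151003652 to 151044665 and stood at 71.5, 32.1 and 67.2 CPM in rapamycin offspring, at 39.4, 36.1 and 38.7 CPM in aged-mother offspring and at 36.4, 24.1, 53.0 and 41.8 CPM in young-mother offspring. Of the rapamycin libraries, 2 were above all 7 libraries of the other groups and the remaining one, rapamycin 2, was below all but young-mother 2. The log2 fold change of Per3 was 0.58 ± 0.31 (interval -0.11 to 1.27, edgeR adjusted p = 0.796) between rapamycin and aged-mother offspring. It was -0.03 ± 0.29 (interval -0.68 to 0.61, edgeR adjusted p = 0.994) between aged-mother and young-mother offspring, and 0.55 ± 0.29 (interval -0.09 to 1.19, edgeR adjusted p = 0.999) between rapamycin and young-mother offspring. Per3 followed the ribosomal level inversely, lowest in the library where that level was highest, within both rapamycin and young-mother offspring. With the level as a covariate the rapamycin against aged-mother value was 0.08 ± 0.15, and without rapamycin 2 and young-mother 2 it was 0.85 ± 0.14 and passed (edgeR adjusted p = 0.00697). In that last fit 3139 genes passed, and the ribosomal levels of the 2 rapamycin libraries kept (-0.91 and -0.43) lay below all 3 of aged-mother offspring (0.02 to 0.51).

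The Cry genes encode the partners of PER that do most of the repression. Cry1, on chromosome 10 from 85131700 to 85185064, stood at 15.3, 20.8 and 18.5 CPM in rapamycin offspring, at 21.1, 22.2 and 15.6 CPM in aged-mother offspring and at 16, 20.9, 15.8 and 12.2 CPM in young-mother offspring. Cry2, on chromosome 2 from 92403646 to 92434043, stood at 135.6, 119.7 and 142.9 CPM in rapamycin offspring, at 114.1, 131.2 and 141.3 CPM in aged-mother offspring and at 122.2, 91.0, 133.5 and 119.7 CPM in young-mother offspring. Neither separated any pair of groups. The log2 fold change between aged-mother and young-mother offspring was 0.27 ± 0.20 for Cry1 (interval -0.17 to 0.71) and 0.14 ± 0.15 for Cry2 (interval -0.18 to 0.47), both with an edgeR adjusted p of 0.99. Cry2 shares 295 exonic bases with D930015M05Rik on the opposite strand. The strand setting of the counting is not given, so reads there could belong to either gene.

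The activators, which start the loop, separated no pair of groups. Arntl, on chromosome 7 from 113207465 to 113314126, stood at 28.9, 22.3 and 22.0 CPM in rapamycin offspring, at 35.4, 27.9 and 27.0 CPM in aged-mother offspring and at 30.5, 28.8, 29.4 and 37.9 CPM in young-mother offspring. Rapamycin 2 and 3 were the lowest of the 10 libraries, but rapamycin 1 lay among the others. The log2 fold change of Arntl was -0.37 ± 0.16 (interval -0.73 to -0.02, edgeR adjusted p = 0.999) between rapamycin and young-mother offspring, -0.30 ± 0.17 (interval -0.68 to 0.08, edgeR adjusted p = 0.796) between rapamycin and aged-mother offspring, and -0.07 ± 0.16 (interval -0.42 to 0.28, edgeR adjusted p = 0.99) between aged-mother and young-mother offspring. Clock, on chromosome 5 from 76209868 to 76304792, stood at 116.8, 68.1 and 108.7 CPM in rapamycin offspring, at 97.1, 83.2 and 93.0 CPM in aged-mother offspring and at 110.1, 71.9, 108.1 and 97.4 CPM in young-mother offspring. Its lowest values were again those of rapamycin 2 and young-mother 2. Npas2, whose product can stand in for CLOCK in mouse forebrain, lies on chromosome 1 from 39193731 to 39363236 and stood at 29.5, 31.3 and 19.8 CPM in rapamycin offspring, at 20.0, 27.2 and 32.0 CPM in aged-mother offspring and at 22.6, 24.8, 25.2 and 22.0 CPM in young-mother offspring. Clock and Npas2 overlapped in all 3 comparisons, with log2 fold changes between -0.09 and 0.18 and edgeR adjusted p-values from 0.892 to 0.999.

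**Figure D2:**
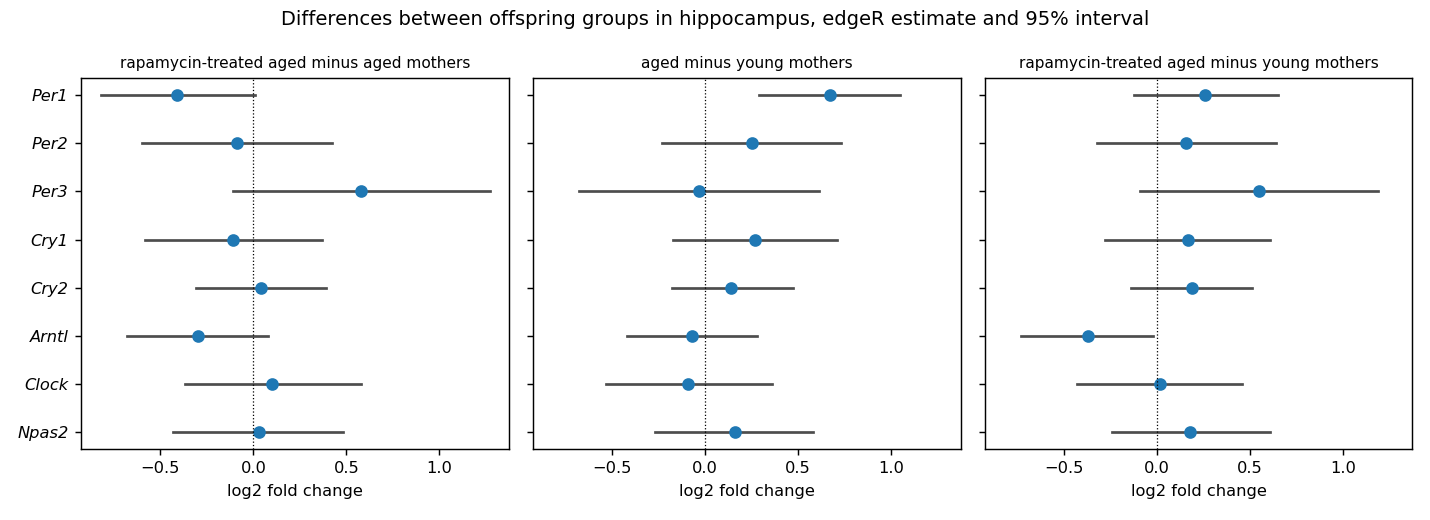
Log2 fold changes of the 8 genes in hippocampus from the edgeR fit (points) with 95% intervals (lines), for rapamycin against aged-mother, aged-mother against young-mother and rapamycin against young-mother offspring; the dotted line marks 0. The intervals of Per1 in the second panel (0.29 to 1.05) and of Arntl in the third (-0.73 to -0.02) leave out 0, and neither gene passed the adjusted threshold.

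No clock member passed the threshold of an adjusted p of 0.05 in any of the 3 hippocampus comparisons, against a background of 0% of 14877 genes for rapamycin against aged-mother, 0.0471% for aged-mother against young-mother and 0.0538% for rapamycin against young-mother offspring. At an unadjusted p under 0.05 there were 0, 1 and 1 members and 673, 522 and 540 of all genes in the same order, and DESeq2 also called no member, with 11, 50 and 31 genes in all. Libraries of the 2 groups did not overlap for 1 of 8 members in rapamycin against aged-mother offspring (9.89% of all genes), for 1 of 8 in aged-mother against young-mother offspring (5.44% of all genes) and for 0 of 8 in rapamycin against young-mother offspring (5.03% of all genes). The member was Per1 both times. Comparisons that share a group of libraries are not independent of each other.

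The mean of the 3 Per genes and the level of Arntl, each centred on the 10 libraries, were set against each other, as transcripts that cycle out of phase. Per minus Arntl was 0.35, 0.08 and 0.68 log2 units in rapamycin offspring, -0.14, 0.06 and 0.28 in aged-mother offspring, and -0.22, -0.73, 0.16 and -0.53 in young-mother offspring. The groups overlapped in every pairing, with the highest values in rapamycin 3 and rapamycin 1 and the lowest in young-mother 2 and young-mother 4. Rapamycin 2 and young-mother 2, highest in ribosomal level, were the lowest of their own groups. Between aged-mother and young-mother offspring the log2 fold change of Arntl was -0.07 (interval -0.42 to 0.28), beside 0.67 for Per1, 0.25 for Per2 and -0.03 for Per3. Between rapamycin and young-mother offspring that of Arntl was -0.37 (interval -0.73 to -0.02), beside 0.26 for Per1, 0.16 for Per2 and 0.55 for Per3. The labels give no hour of collection, so a difference in hour between the groups was not tested.

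Other genes of the loop were described by the same fit, over a list of 22 that holds the REV-ERB and ROR receptors, the D-box factors, the Bhlhe40 and Bhlhe41 repressors and the casein kinases, among others. None of the 22 passed in hippocampus with edgeR or DESeq2, and 5, 4 and 2 were at an unadjusted p under 0.05 in aged-mother against young-mother, rapamycin against young-mother and rapamycin against aged-mother offspring. Of all 14877 genes, 522, 540 and 673 were at that unadjusted p in the same order. Between aged-mother and young-mother offspring 16 lay above 0 and 6 below with a median log2 fold change of 0.17, against -0.01 over all genes tested. Between rapamycin and young-mother offspring 16 lay above 0 and 6 below with a median of 0.10, against 0.01 over all genes. Between rapamycin and aged-mother offspring 7 lay above 0 and 15 below with a median of -0.11, against 0.02 over all genes. With no overlap, 6 loop genes were higher and 0 lower in the first of these comparisons, against 434 and 375 of all genes. The second had 3 higher and 1 lower, against 436 and 313, and the third 1 and 4, against 745 and 726.

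Among loop genes of smallest unadjusted p between aged-mother and young-mother offspring was Hlf, a D-box activator driven by the clock. Hlf stood at 166.9, 167.4 and 141.2 CPM in rapamycin offspring, at 179.8, 175.2 and 177.7 CPM in aged-mother offspring and at 125.7, 148.3, 127.5 and 109.5 CPM in young-mother offspring. Aged-mother libraries were above all the others, and the log2 fold change against young-mother offspring was 0.48 ± 0.13 (edgeR adjusted p = 0.716). Nfil3, the D-box repressor, stood at 6.49, 11.3 and 7.81 CPM in rapamycin offspring, at 11.9, 13.5 and 14.5 CPM in aged-mother offspring and at 8.45, 9.16, 6.29 and 8.16 CPM in young-mother offspring. It too was highest in the aged-mother libraries, by 0.73 ± 0.21 over young-mother offspring (edgeR adjusted p = 0.885), and rapamycin offspring were 0.65 ± 0.22 lower than aged-mother offspring (edgeR adjusted p = 0.796). Nr1d2, which encodes REV-ERB beta, and Bhlhe40 were 0.33 ± 0.11 and 0.38 ± 0.14 higher in aged-mother than in young-mother offspring, both with an edgeR adjusted p of 0.99. Without rapamycin 2 and young-mother 2, Hlf (0.57 ± 0.10), Nfil3 (0.81 ± 0.17) and the retinoid-related receptor gene Rorb (0.59 ± 0.13) passed in this comparison, with edgeR adjusted p-values of 0.0223, 0.0311 and 0.039. In the same setting Rorb (-0.72 ± 0.15) and Nfil3 (-0.91 ± 0.19) passed between rapamycin and aged-mother offspring, with edgeR adjusted p-values of 0.0113 and 0.0124. Over all genes, 590 passed there between aged-mother and young-mother offspring and 3139 between rapamycin and aged-mother offspring. The setting was chosen after the data had been seen.

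In the remaining comparisons, the loop genes of smallest unadjusted p between rapamycin and aged-mother offspring included Nfil3, Rorb (-0.57 ± 0.23) and Bhlhe40 (-0.33 ± 0.15), all at an edgeR adjusted p of 0.796. Between rapamycin and young-mother offspring the 4 of smallest unadjusted p were Tef (0.34 ± 0.12), Hlf (0.31 ± 0.13), Dbp (0.58 ± 0.24) and the repressor gene Ciart (0.42 ± 0.18), all at an edgeR adjusted p of 0.999. Dbp, the D-box activator with one of the widest daily swings in mouse tissues, stood at 32.5, 79.3 and 50.5 CPM in rapamycin offspring, at 42.1, 43.6 and 51.6 CPM in aged-mother offspring and at 31.8, 37.2, 40.8 and 34.6 CPM in young-mother offspring. Aged-mother libraries all lay above young-mother libraries, while rapamycin offspring spanned both groups.

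**Figure D3:**
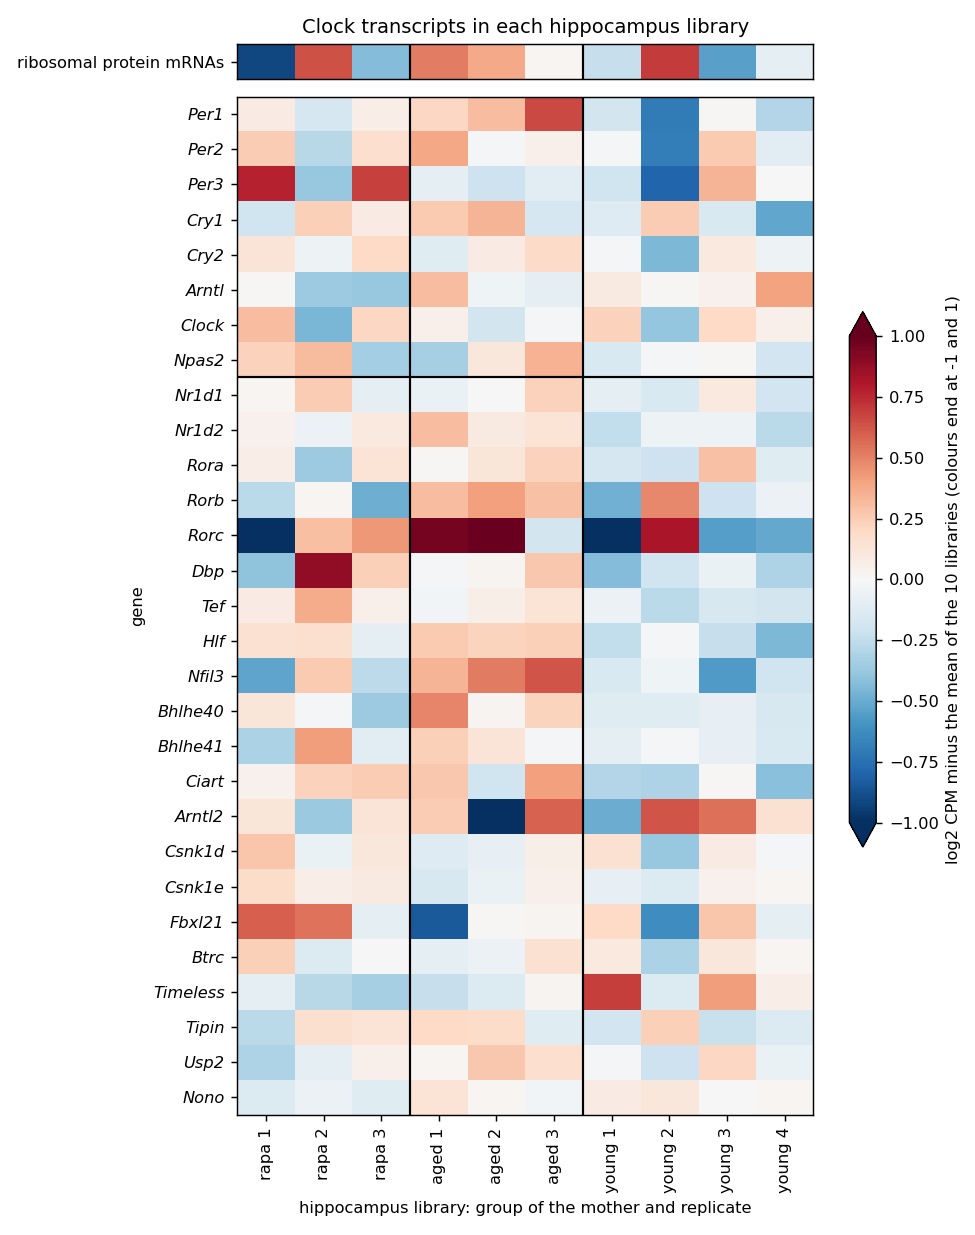
Log2 CPM of the 8 clock genes (upper block) and 21 of the 22 other loop genes (lower block) in each hippocampus library, relative to the mean of the 10 libraries, with the ribosomal protein level in the strip on top; colours end at -1 and 1 and values beyond share the end colours. Per1 is redder in the 3 aged-mother columns, and rapamycin 2 and young-mother 2 are blue for all 3 Per genes and Clock, where the strip is reddest.

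Per1 was set beside genes that answer the same inputs, activity and glucocorticoids. Of 14 immediate early genes, 7 rose in edgeR in aged-mother over young-mother offspring and 7 in rapamycin over young-mother offspring, while none passed between rapamycin and aged-mother offspring in edgeR (3 at an unadjusted p under 0.05, and 1 called by DESeq2). Their median log2 fold changes were 1.46, 1.57 and -0.07 in the same order. Their summed level was 1132.8 to 1239.1 CPM in rapamycin offspring, 1001.5 to 1569 CPM in aged-mother offspring and 426.8 to 616.3 CPM in young-mother offspring. Rapamycin and aged-mother offspring thus overlapped in this sum, and both lay above young-mother offspring. Of all 14877 genes, 0.0471% passed in edgeR in aged-mother and 0.0538% in rapamycin against young-mother offspring. The list was chosen with earlier results of these data known. The count of 7 in aged-mother over young-mother offspring was 0 without young-mother 1, 2 without any one of aged-mother 1, aged-mother 3, rapamycin 1, rapamycin 3 and young-mother 3, and 11 with DESeq2. The count in rapamycin over young-mother offspring was 2 to 4 without any one of young-mother 1, young-mother 3, aged-mother 1, rapamycin 1 and rapamycin 3, and 13 with DESeq2. With only the 2 groups compared the counts were 2 in aged-mother and 4 in rapamycin over young-mother offspring.

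Fos, the AP-1 factor, stood at 66.1, 59.4 and 45.3 CPM in rapamycin offspring, at 27.4, 37.8 and 61.5 CPM in aged-mother offspring and at 5.99, 7.24, 4.53 and 6.61 CPM in young-mother offspring. It rose by 3.23 ± 0.28 in rapamycin (edgeR adjusted p = 0.00154) and by 2.79 ± 0.27 in aged-mother (edgeR adjusted p = 0.00576) over young-mother offspring on the log2 scale, and the last value no longer passed without young-mother 1 (adjusted p = 0.0552). Sik1, a kinase gene driven by CREB that limits the response of the clock to light in mice, stood at 23.0, 17.4 and 19.0 CPM in rapamycin offspring, at 18.7, 19.1 and 24.2 CPM in aged-mother offspring and at 8.04, 7.67, 8.75 and 5.27 CPM in young-mother offspring. It rose by 1.41 ± 0.19 (edgeR adjusted p = 0.0356) and 1.48 ± 0.19 (edgeR adjusted p = 0.0279) over young-mother offspring in the 2 groups in that order, and passed in 8 and 10 of 18 settings. Rapamycin and aged-mother offspring overlapped for Fos and Sik1. For 3 genes of the list, chosen after their values were seen, all rapamycin libraries lay above all aged-mother libraries. Btg2, an antiproliferative gene, stood at 63.7, 45.7 and 61.6 CPM in rapamycin offspring, at 24.9, 20.3 and 30.0 CPM in aged-mother offspring and at 14.5, 15.7, 16.1 and 13.8 CPM in young-mother offspring. Its log2 fold change between rapamycin and aged-mother offspring was 1.18 ± 0.18 (edgeR adjusted p = 0.531). That of Dusp1, a phosphatase gene of MAP kinases, was 0.92 ± 0.24, and that of Ier2 was 0.88 ± 0.25, both with an edgeR adjusted p of 0.796.

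The glucocorticoid-responsive list of 10 genes had no member past the threshold in the edgeR fit of all 10 hippocampus libraries, with 6, 2 and 5 at an unadjusted p under 0.05 in aged-mother against young-mother, rapamycin against young-mother and rapamycin against aged-mother offspring (522, 540 and 673 of all 14877 genes). Its median log2 fold change was 0.56 between aged-mother and young-mother, 0.34 between rapamycin and young-mother and -0.29 between rapamycin and aged-mother offspring. Its summed level was 419.5 to 524.5 CPM in rapamycin offspring, 511.2 to 684.1 CPM in aged-mother offspring and 355.3 to 409 CPM in young-mother offspring. Tsc22d3, which encodes the glucocorticoid-induced leucine zipper, stood at 86.2, 95.9 and 66.3 CPM in rapamycin offspring, at 151, 160.1 and 107.3 CPM in aged-mother offspring and at 34.6, 61.4, 44.0 and 57.9 CPM in young-mother offspring. The 3 groups did not overlap, and the log2 fold change was 1.49 ± 0.22 (edgeR adjusted p = 0.0618) between aged-mother and young-mother offspring and -0.75 ± 0.24 (edgeR adjusted p = 0.796) between rapamycin and aged-mother offspring. Sgk1, a kinase gene induced by glucocorticoids, stood at 110.8, 78.7 and 102.6 CPM in rapamycin offspring, at 185.9, 176.8 and 121.6 CPM in aged-mother offspring and at 67.0, 93.7, 74.4 and 65.1 CPM in young-mother offspring. Its aged-mother libraries lay above the other 7, as those of Per1 did, by 1.11 ± 0.19 over young-mother offspring on the log2 scale (edgeR adjusted p = 0.151). DESeq2 called both in that comparison, Tsc22d3 with an adjusted p of 1.52e-06 and Sgk1 with one of 0.000216. In edgeR, Tsc22d3 also passed there with no low-count filter (adjusted p = 0.0334), with the replicate block (adjusted p = 0.0242), without young-mother 2 (adjusted p = 0.0437), with the ribosomal covariate (adjusted p = 0.0183) and without both rapamycin 2 and young-mother 2 (adjusted p = 0.00649). Sgk1 passed in the last of these settings too (edgeR adjusted p = 0.00649), among 590 genes. There both genes also passed between rapamycin and aged-mother offspring, Tsc22d3 at -0.88 ± 0.22 (edgeR adjusted p = 0.0215) and Sgk1 at -0.61 ± 0.16 (edgeR adjusted p = 0.0269), among 3139 genes. With all libraries Sgk1 was at -0.73 ± 0.21 in that comparison (edgeR adjusted p = 0.796). The settings on the ribosomal level were chosen after the data had been seen. Without rapamycin 2, the rapamycin libraries kept (-0.91 and -0.43) lay below those of aged-mother offspring (0.02 to 0.51) in that level. Fkbp5, a co-chaperone gene of the glucocorticoid receptor, averaged 76.9 CPM in rapamycin, 76.9 CPM in aged-mother and 72.1 CPM in young-mother offspring, with a log2 fold change of 0.09 ± 0.13 between the last 2 groups (edgeR adjusted p = 0.99).

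The order of group means of Per1, aged-mother above rapamycin above young-mother, was taken up after the data had been seen. It was also that of Per2 and Cry1, or 2 of the 7 other members (28.6%), and of 9 of 22 other loop genes (40.9%), 8 of 14 immediate early genes (57.1%) and 7 of 10 glucocorticoid-responsive genes (70%), against 12.7% of all genes tested. The lists were chosen with earlier results of these data known, so these shares are no independent test. Of the 8 members, 3 were highest in aged-mother (37.5%, against 34.8% of all genes) and 4 in rapamycin offspring (50%, against 38.7%). Of the 14 immediate early genes, 6 were highest in rapamycin offspring. In the level pattern over all 10 hippocampus libraries, the genes most like Per1 of 11774 candidates were Spty2d1, Dusp4, Sh2d3c, Pex26 and Mtcl1, with root mean square differences of centred log2 CPM from 0.166 to 0.18, set against an SD of Per1 of 0.366. Those most like Per3 were closer, from Ltbp4 (0.064) and Ccdc141 (0.082) to Tbc1d4, Crebbp and Nr6a1 (0.123 to 0.126), against an SD of 0.478. For Per2, with an SD of 0.312, they were Kdm6b, Eri2, Nudt12, Aff1 and Fdxacb1 (0.109 to 0.129). The libraries share tissue and protocol, and none of these genes was in the loop list.

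In oocytes, the rapamycin library 1 stood apart from the other 6 before any comparison. Its 8 oocyte identity markers summed to 1861.6 CPM, against 20294.5 to 28039.2 CPM in the other 6, and its 10 cumulus and granulosa markers to 135.2 CPM, against 1.35 to 12.8 CPM. No clock member passed in oocytes either, against a background of 0% of 10083 genes for rapamycin against aged, 0.268% for aged against young and 0.426% for rapamycin against young oocytes. An unadjusted p under 0.05 was reached by 1 member in each of these comparisons and by 603, 1162 and 898 of all genes. DESeq2 called 11, 240 and 220 genes in the same order, Per1 among those of aged against young oocytes. With 2 or 3 libraries a group, the libraries did not overlap for 2 of 7 members in rapamycin against aged oocytes (25.6% of all genes), for 5 of 7 in aged against young oocytes (61.3% of all genes) and for 1 of 7 in rapamycin against young oocytes (33.4% of all genes). Without rapamycin 1, 10220 genes were tested, of which 0.0587%, 11.4% and 2.97% passed in edgeR in the same order, with 0, 1 and 1 members among them. The libraries then did not overlap for 4, 5 and 4 of 7 members (45.7%, 61.5% and 50.5% of all genes).

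Per1 showed the widest difference between aged and young oocytes among the members. It stood at 5.38, 9.23 and 22.4 CPM in rapamycin oocytes, at 61.5 and 26.5 CPM in aged oocytes and at 7.85 and 3.49 CPM in young oocytes. Both aged libraries were above all 5 others, and rapamycin and young oocytes overlapped. The log2 fold change between aged and young oocytes was 2.97 ± 0.83 (interval 1.06 to 4.88, edgeR adjusted p = 0.277). It passed when rapamycin 1 was left out of the shared estimate of spread (2.98 ± 0.60, edgeR adjusted p = 0.0185), with only the 2 groups (3.01 ± 0.53, edgeR adjusted p = 0.0126), with no low-count filter (2.97 ± 0.73, edgeR adjusted p = 0.0326) and with DESeq2 (2.95 ± 0.82, adjusted p = 0.0213). These were 4 of 13 settings, and 1168, 1177, 167 and 240 genes passed in them in that order. Between rapamycin and aged oocytes the log2 fold change of Per1 was -1.82 ± 0.69 (interval -3.41 to -0.23, edgeR adjusted p = 0.73). It ran from -2.54 to -1.11 as each library was left out, with -1.44 ± 0.55 (edgeR adjusted p = 0.267) without rapamycin 1. Age and hormone dose changed together between aged and young females, so their parts in this difference cannot be told apart.

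The remaining repressors did not share one direction. Cry1 was the most abundant member, at 360.8, 303.3 and 378.5 CPM in rapamycin oocytes, 772.2 and 409.2 CPM in aged oocytes and 283.3 and 343.9 CPM in young oocytes. The aged libraries were again above all others, by 0.91 ± 0.40 over young oocytes on the log2 scale (interval -0.01 to 1.84, edgeR adjusted p = 0.438), and rapamycin oocytes were at -0.77 ± 0.36 relative to aged oocytes (edgeR adjusted p = 0.73). Per3 stood at 58.6, 21.1 and 17.0 CPM in rapamycin oocytes, at 44.2 and 31.5 CPM in aged oocytes and at 70.8 and 50.8 CPM in young oocytes. Young oocytes were the highest apart from rapamycin 1, and the log2 fold change was -0.68 ± 0.63 (edgeR adjusted p = 0.703) between aged and young oocytes. Between rapamycin and young oocytes it was -0.92 ± 0.57 (edgeR adjusted p = 0.649), and Per3 fell by 1.66 ± 0.32 on the log2 scale (edgeR adjusted p = 0.0264) without rapamycin 1.

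Cry2 and Per2 were close to the limit of detection in oocytes. Cry2 had 17, 30 and 14 counts in rapamycin oocytes, 3 and 10 in aged oocytes and 2 and 2 in young oocytes, or 2.11 to 4.57 CPM, 0.809 and 2.25 CPM, and 0.436 and 0.233 CPM. Rapamycin libraries were above the young ones, with a log2 fold change of 3.45 ± 0.93 (interval 1.31 to 5.60, edgeR adjusted p = 0.288) that rests on those 2 counts in each young library, and of 3.32 ± 0.91 (edgeR adjusted p = 0.0961) without rapamycin 1. Per2 had 8, 4 and 6 counts in rapamycin oocytes, 19 and 1 in aged oocytes and 5 and 0 in young oocytes, and was not tested.

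Of the activators, Arntl stood at 392.7, 194 and 226.9 CPM in rapamycin oocytes, at 479.5 and 287.7 CPM in aged oocytes and at 247.4 and 267.7 CPM in young oocytes. Aged libraries lay above the young ones, by 0.57 ± 0.46 on the log2 scale (edgeR adjusted p = 0.655), and rapamycin oocytes spanned much of that range. Between rapamycin and young oocytes Arntl was at 0.07 ± 0.42 (edgeR adjusted p = 0.966), and at -0.28 ± 0.26 (edgeR adjusted p = 0.66) without rapamycin 1. Clock stood at 160.5, 133.7 and 94.8 CPM in rapamycin oocytes, at 85.7 and 104.5 CPM in aged oocytes and at 73.9 and 97.1 CPM in young oocytes, and the groups overlapped in all 3 comparisons. Npas2 had 1 count in rapamycin 1, or 0.269 CPM, beside 34.8 and 52.0 CPM in the other rapamycin libraries, 50.4 and 38.7 CPM in aged oocytes and 42.3 and 25.6 CPM in young oocytes. Its log2 fold change between rapamycin and young oocytes was -0.21 ± 1.18, and 0.37 ± 0.35 without rapamycin 1.

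**Figure D4:**
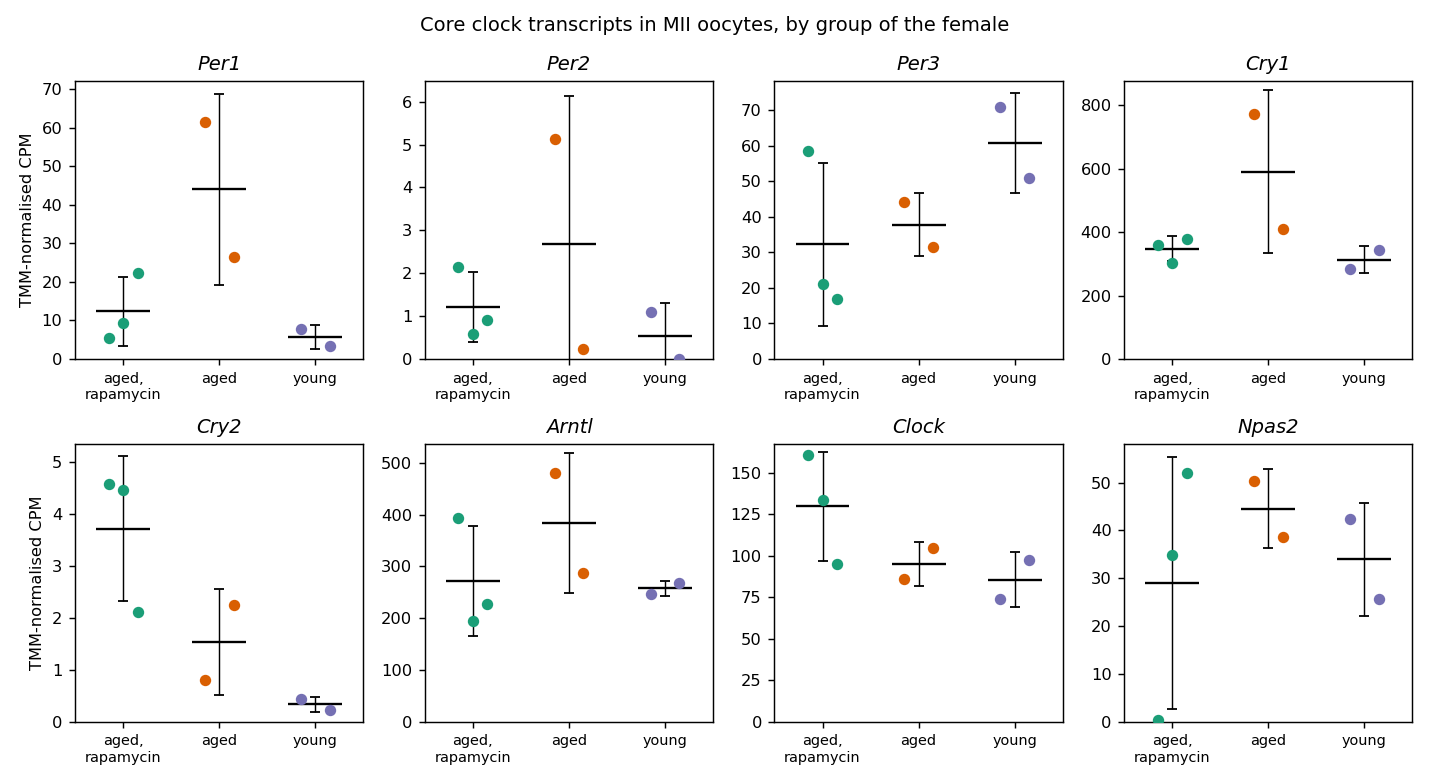
TMM-normalised CPM of the 8 genes in each oocyte library (points), by group of the female, with the mean (bar) and SD (whiskers, n = 3, 2 and 2; drawn from 0 up). Both aged points lie above the others for Per1 and Cry1, and the rapamycin point near 0 for Npas2 is library 1.

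Of the 22 other loop genes, 17 were tested in oocytes, and Arntl2, the paralogue of Arntl, was the one that passed in the fit of all 7 libraries. Arntl2 stood at 4.57, 2.23 and 2.71 CPM in rapamycin oocytes, at 1.08 and 2.02 CPM in aged oocytes and at 93.1 and 85.5 CPM in young oocytes. All 5 libraries of 48-week-old females were far below both young ones. Arntl2 fell by 4.83 ± 0.48 in rapamycin (edgeR adjusted p = 0.00817) relative to young oocytes on the log2 scale, and fell by 5.81 ± 0.60 in aged oocytes (edgeR adjusted p = 0.0181). Leaving out any one of aged 1, aged 2, young 1 and young 2 in aged against young oocytes, and of rapamycin 2, rapamycin 3, young 1 and young 2 in rapamycin against young oocytes, ended the call, with log2 fold changes from -6.34 to -5.44 and from -4.84 to -4.62. Over all 17 genes the median log2 fold change was -0.15 between rapamycin and aged, 0.14 between aged and young and -0.01 between rapamycin and young oocytes, against 0.01, -0.01 and 0.02 over all genes. Without rapamycin 1 these medians were -0.13, 0.13 and 0.06, against 0.02, -0.03 and 0.02 over all genes. In that setting 3 loop genes passed in rapamycin against young oocytes (2.97% of all 10220 genes) and 4 in aged against young oocytes (11.4% of all genes). Beside Arntl2 they were the repressor gene Bhlhe41 (-1.31 ± 0.25 in rapamycin and -1.69 ± 0.26 in aged oocytes, edgeR adjusted p = 0.0245 and 0.00639), Tipin, whose product binds TIMELESS (-1.03 ± 0.22 and -1.11 ± 0.22, edgeR adjusted p = 0.0408 and 0.0185), and, in aged oocytes, Nono (1.19 ± 0.34, edgeR adjusted p = 0.049). With only the aged and young groups in the fit the same 4 passed, among 1177 genes. With no low-count filter Nfil3 (3.07 ± 0.75, edgeR adjusted p = 0.0293) passed beside Arntl2 in rapamycin against young oocytes, among 179 genes. In hippocampus Arntl2 averaged 2.15 CPM in rapamycin, 2.22 CPM in aged-mother and 2.64 CPM in young-mother offspring, all overlapping.

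The 2 tissues differed in which members led. Levels between genes were compared as CPM per kilobase of merged exons, averaged over all libraries of a tissue. In oocytes Cry1 came first at 121.9 ± 49.9 (SD, n = 7), followed by Arntl at 39.8 ± 13.4, and the range of 1 SD around each mean lay apart from that of the next lower gene. Below them came Clock (7.81 ± 2.18), Npas2 (7.28 ± 3.70), Per3 (4.37 ± 2.06), Per1 (3.46 ± 3.64), Cry2 (0.336 ± 0.286) and Per2 (0.246 ± 0.302), where the 1 SD ranges of neighbours in the order overlapped. This order pools groups that differ. Per1 was at 7.81 ± 4.39 (SD, n = 2) in aged oocytes, above Per3 at 3.94 ± 0.938, and at 1.01 ± 0.547 in young oocytes, below Per3 at 6.33 ± 1.47. Without rapamycin 1, Cry1 (124.3 ± 54.2, n = 6) and Arntl (37.7 ± 13.5) still led, and Npas2 (8.48 ± 2.07) came before Clock (7.16 ± 1.48). In hippocampus Cry2 came first at 19.8 ± 2.44 (SD, n = 10), followed by Per1 at 13.5 ± 3.42, both apart from the next by the same measure. Clock (6.95 ± 1.21), Per2 (6.26 ± 1.24), Cry1 (5.34 ± 0.985), Npas2 (5.31 ± 0.933), Per3 (4.58 ± 1.58) and Arntl (3.86 ± 0.657) overlapped with their neighbours in the 1 SD range. The libraries of the 2 tissues were made by different protocols, amplified full-length cDNA for oocytes and fragmented mRNA for hippocampus, so no test was made between them. With the longest transcript as the length, the level of Arntl was 74.9 in oocytes and 7.26 in hippocampus and that of Cry2 31.5 in hippocampus, and Cry1 and Arntl still led in oocytes and Cry2 and Per1 in hippocampus.

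**Figure D5:**
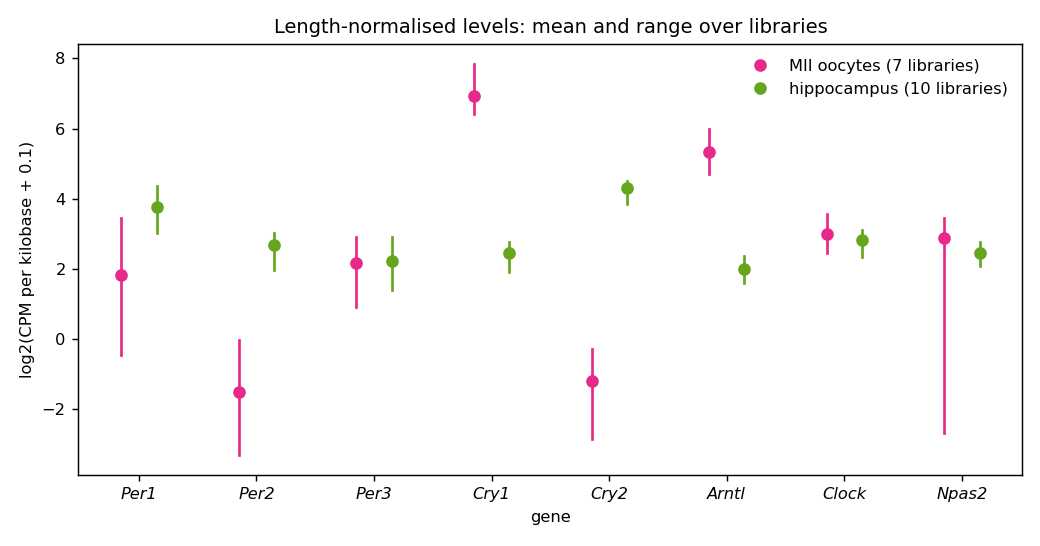
Mean (points) and range (lines) over libraries of each member's level in MII oocytes and hippocampus, as log2 of CPM per kilobase of merged exons plus 0.1. Cry1 and Arntl stand highest in oocytes and Cry2 and Per1 in hippocampus, while Per3, Clock and Npas2 have similar means in both.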

How the data were processed

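The authors deposited raw read counts per gene symbol for 17 libraries, with no normalization. STAR, HTSeq and mm10 are named per the submitters' processing notes, without versions, and neither an annotation nor a strand setting is named there. The 5 summary rows of each file were left out of totals and tests (reads outside genes came to 11.6% to 16% of the total in hippocampus and 6.09% to 9.32% in oocytes).

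Each tissue was fitted alone with all 3 groups in edgeR 4.0.16 (R 4.3.3, limma 3.58.1), with filterByExpr, TMM scaling, the quasi-likelihood F-test and Benjamini-Hochberg adjustment over all genes tested, at a threshold of 0.05. The fit was checked on simulated counts with known folds, with the sign of the larger folds as the criterion. That check does not cover differences as small as those of the members in hippocampus. The biological coefficient of variation was 23.5% in hippocampus and 49.5% in oocytes. Intervals of log2 fold changes are at the 95% level, and floors cover counting error only. Centred log2 CPM used a prior count of 1. Lengths and coordinates come from GENCODE M21 on GRCm38.

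The members and lists were chosen with earlier results of these data known. The text names all 8 members, the loop genes past the threshold, the 4 of smallest unadjusted p in each hippocampus comparison (1 such result is not reported here), 5 genes of the immediate early and glucocorticoid lists, and, for the 3 members of widest spread, the 5 genes of nearest centred pattern with a mean log2 CPM of at least 2. Also named are Btg2, Dusp1 and Ier2 of the immediate early list, chosen after their values had been seen. The ribosomal list and the order of group means were chosen after the data had been seen. Alternatives were relative log expression factors, no filter, DESeq2 1.42.0, only the groups compared, a replicate block, each library left out in turn, and 2 that concern the ribosomal level.

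Whether libraries within a group stem from different animals is not labelled, so p-values reflect only how these libraries vary, in part perhaps technically. No pair within a group agreed within counting noise (chi-square per degree of freedom at least 12.4). Figures were drawn with matplotlib 3.10.9.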

Additional observations from a re-analysis of the deposited data

How the results depend on the processing

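None of the clock members passed in any hippocampus or oocyte comparison with relative log expression factors, the replicate block or, in hippocampus, any setting other than the 2 on the ribosomal level. Deviations of same-numbered libraries correlated at r = -0.17 to 0.62 over 9 hippocampus pairs, with all 3 pairs of number 2 positive (0.18, 0.20 and 0.62), and at -0.09 to 0 over 6 oocyte pairs. Pairs of unlike number correlated at -0.56 to 0.5 over 24 hippocampus pairs and at -0.14 to 0.14 over 10 oocyte pairs. Not every same-numbered pair was positive, and nothing in the labels ties the numbers to animals or batches, so the libraries were taken as unpaired. The replicate block gave 4 genes past the threshold for rapamycin against young-mother offspring, 1 for aged and 0 for rapamycin against young oocytes, and turned Per3 (0.09) and Arntl (0.01) between aged-mother and young-mother offspring. The sign of Per1 in hippocampus was the same under every setting run, from -0.60 to -0.26 for rapamycin against aged-mother, 0.52 to 0.81 for aged-mother against young-mother and 0.14 to 0.36 for rapamycin against young-mother offspring.

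With each library left out in turn, genes past the threshold ranged from 0 to 1, 0 to 15 and 2 to 10 for rapamycin against aged-mother, aged-mother against young-mother and rapamycin against young-mother offspring, and from 0 to 6, 0 to 1168 and 0 to 304 for rapamycin against aged, aged against young and rapamycin against young oocytes, the highest oocyte counts all without rapamycin 1. Members past the threshold ranged from 0 to 1 in both oocyte comparisons with young. Values that crossed 0 were, for rapamycin against aged-mother offspring, Per2 (-0.20 to 0.05), Cry2 (-0.04 to 0.11), Clock (-0.05 to 0.29) and Npas2 (-0.14 to 0.19), for aged-mother against young-mother offspring, Per3 (-0.19 to 0.15), Arntl (-0.20 to 0.03), Npas2 (-0.01 to 0.32) and Fkbp5 (-0.01 to 0.19), and, for rapamycin against young-mother offspring, Clock (-0.14 to 0.21). In oocytes they were Per3 (-0.96 to 0.11) for rapamycin against aged, Clock (-0.03 to 0.40) for aged against young, and Arntl (-0.28 to 0.27) and Npas2 (-0.92 to 0.37) for rapamycin against young.

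With only the 2 groups compared, genes past the threshold numbered 2, 2 and 5 in hippocampus, and 1177 (1 member) and 14 in aged and rapamycin against young oocytes. DESeq2 gave 11, 50 and 31 in hippocampus and 11, 240 (1 member) and 220 in oocytes, and no low-count filter 11, 167 (1 member) and 179 in oocytes. The ribosomal covariate gave 11 genes (1 member) for aged-mother and 16 for rapamycin against young-mother offspring. It turned Cry1 (0.08), Cry2 (-0.10) and Clock (-0.20) for rapamycin against aged-mother, Per3 (0.29) and Clock (0.10) for aged-mother against young-mother and Clock (-0.10) for rapamycin against young-mother offspring. Without both libraries of highest ribosomal level, 3139 genes (1 member) passed for rapamycin against aged-mother and 590 (1 member) for aged-mother against young-mother offspring, and Per2 (0.04) and Npas2 (-0.11) turned for rapamycin against aged-mother offspring. Longest transcripts moved the CPM per kilobase to 7.34 for Per3, 31.5 for Cry2, 7.26 for Arntl and 9.79 for Clock in hippocampus, and to 7 for Per3, 74.9 for Arntl and 11 for Clock in oocytes. The causes of these shifts were not tested. Of single-gene and list values under alternatives, 783 in hippocampus and 313 in oocytes kept direction and side of the threshold, while 27 and 5 turned direction, 19 and 10 fell short of the threshold, 17 and 5 came to pass it and 21 and 14 list counts moved. Few libraries and, for oocyte Cry2 and Per2, few counts limit these results.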
